A study of Homo sapiens with 18 samples.

Results

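B2M, the transgene row named B2M_tomato, and the genes that lie around B2M on chromosome 15 were followed in K562 cells in which the B2M promoter had been targeted for DNA methylation. The members were 37 named rows of the deposited RNA count table, out of 55766 rows. They comprise B2M, B2M_tomato and 35 neighbour genes that start from 1218.4 kb before to 3006.0 kb after the B2M start. In all, 36 members were matched to the GENCODE annotation of GRCh37, the sequence of hg19, and B2M_tomato has no position there. Of the 37, 20 passed the filter on low counts and were tested: B2M, B2M_tomato and 18 neighbours. The other 17 were too low for a test and are described by their counts.

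K562 is an established human erythroleukaemia line. All groups used here, the untreated one included, were K562 cells with a B2M:tdTomato transgene, where tdTomato is a red fluorescent protein. The untreated group received no repressor, the TALE group was silenced with TALE-based repressors, and the dCas9 group was silenced with dCas9-based repressors and a guide RNA plasmid. TALEs and dCas9 are programmable DNA-binding proteins, and cells of each treated group were given 3 repressor plasmids at once, among them the one that the labels name D3A-based. Each group had 3 RNA-seq libraries and 3 MeDIP-seq libraries, MeDIP being the capture of DNA fragments with an antibody against 5-methylcytosine. The time from treatment to harvest, whether silenced cells were sorted or cloned, and whether replicates were separate cultures are not given in the sources used here. The p-values therefore measure only the spread between these libraries, which may be technical. Where cells are called silenced without a method, TALE and dCas9 were averaged with equal weight.

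Beta-2 microglobulin, the product of B2M, is the small subunit that pairs with the heavy chains of MHC class I molecules and is needed for them to reach the cell surface. The B2M promoter lies in a CpG island, and methylation of cytosines in CpG dinucleotides of such promoters is a mark of silenced genes. Its upstream neighbour PATL2, which codes for an RNA-binding protein known from oocytes, is read from the opposite strand, so that the starts of both genes face away from each other across a short shared stretch. Neighbouring genes are of interest in targeted silencing because repressive chromatin can spread along a chromosome.

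RNA libraries held 8460076 to 12050554 counts, and the MeDIP libraries 2529729 to 4492751 counts in the listed regions. Across genes, the mean correlation of each RNA library with the others was 0.984 to 0.989, and mitochondrial genes took 4.04% to 14.0% of counts. All 12 listed erythroid and K562 markers were tested, and their summed level was 6810 to 10700 CPM, counts scaled to the size of each library. Of the 5 T-cell markers, CD3D had 151 to 292 counts per library and CD3G 19 to 36, while CD3E had 0 to 6 and CD2 0 to 1, and the list summed to 16.9 to 32.8 CPM. Of the 4 myeloid markers, CD14 had 0 to 3 counts, and the list summed to 0.185 to 2.78 CPM. The 4 B-cell markers summed to 0.247 to 2.07 CPM and the 4 fibroblast markers to 5.44 to 10.9 CPM. Of the 4 epithelial markers, EPCAM had 792 to 1272 counts and KRT19 336 to 937, while KRT5 had 0 to 6 and CDH1 0 to 2. Untreated replicate 3 had 0.639% of its counts in genes below the filter, against 0.201% to 0.288% in the other 8 libraries.

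The stretch between the PATL2 and B2M starts (of their MANE Select transcripts) is printed here from GRCh37, chr15:45003522-45003714, plus strand. It is part of the longer region of the methylation result below, and counts per region do not place the signal within it. It is 193 bases long, with PATL2 on its left and B2M on its right, and the 12 CpG dinucleotides are in capitals.
between the PATL2 and B2M starts: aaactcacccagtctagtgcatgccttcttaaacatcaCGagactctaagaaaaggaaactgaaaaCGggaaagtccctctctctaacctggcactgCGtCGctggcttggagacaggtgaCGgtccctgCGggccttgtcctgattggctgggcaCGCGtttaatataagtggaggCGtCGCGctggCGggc
G and C made up 54.9% of these bases. In RefSeq promoters (GRCh38.p14, 250 bases before to 50 after each start), found for 28 of the 36 positioned members, the B2M promoter had 22 CpG per 300 bases, more than 62.3% of 35116 promoters. The median was 20 for the member promoters and 14 for all promoters. The core of elements bound by interferon regulatory factors, the letters GAAA, any 2 bases and GAAA again, was searched on both strands. It was found in 3 member promoters (B2M, PATL2 and TRIM69) and in 3.57% of all promoters. In B2M and PATL2, whose windows overlap, the same run of bases gave 2 matches that overlap each other, GAAAAGGAAA and GAAACTGAAA, and in TRIM69 the match was GAAAGAGAAA. These matches describe letters in a window and are not evidence of binding.

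Both rows of the targeted gene fell in TALE cells and in dCas9 cells. B2M_tomato had 359, 385 and 393 CPM in the untreated libraries, 12.5, 14.6 and 18.2 in the TALE libraries, and 19.0, 15.9 and 13.9 in the dCas9 libraries. The groups did not overlap, and every silenced library was below every untreated library. The row was at 3.99% of the untreated level in TALE cells (95% interval 3.16% to 5.02%) and at 4.30% in dCas9 cells (3.42% to 5.42%). On the log2 scale the changes were −4.65 ± 0.16 (SE; adjusted p = 2.84e-12, edgeR) for TALE and −4.54 ± 0.16 (adjusted p = 4.05e-12, edgeR) for dCas9. In bulk RNA, fewer cells with the transcript and less transcript per cell cannot be told apart.

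The B2M row was lower in counts but moved in the same way. It had 79, 48 and 54 counts in the untreated libraries, 3, 7 and 4 in the TALE libraries, and 2, 3 and 3 in the dCas9 libraries. As levels, that was 6.45 ± 0.487 CPM (SD, n = 3) in untreated cells, 0.401 ± 0.126 in TALE cells and 0.264 ± 0.0688 in dCas9 cells. Every silenced library was again below every untreated library. For TALE the fall was −3.94 ± 0.35 on the log2 scale (SE; adjusted p = 9.61e-06, edgeR), which is 6.52% of untreated (3.94% to 10.8%). For dCas9 it was −4.56 ± 0.38 (adjusted p = 4.57e-06, edgeR), or 4.23% of untreated (2.43% to 7.38%). Counts this low make the size of the fold depend on the scale: with 0.5 CPM added before taking logs, the differences were −2.95 and −3.19, each with an exact two-sided permutation p of 0.1, the smallest that 3 libraries against 3 can give. Over 6 silenced and 3 untreated libraries the exact p was 0.0238 for each row, again the smallest possible.

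B2M and B2M_tomato were the 2 of 20 tested members that passed an adjusted p of 0.05 in the TALE comparison, where 0.0218% of all 13786 genes tested did. The same 2 passed in the dCas9 comparison, where 0.029% of all genes did, and in the silenced comparison, where 0.0363% did. The B2M row passed the count filter only through the untreated libraries, where it was high. Its calls are therefore no support independent of those counts. Between TALE and dCas9 cells, the percentage of all genes called was 0, with 6.38% at an unadjusted p under 0.05, and 0 members passed. The log2 difference of TALE from dCas9 was −0.11 for B2M_tomato (95% interval −0.44 to 0.22; edgeR adjusted p = 0.928) and 0.62 for B2M (−0.56 to 1.81; edgeR adjusted p = 0.878), and these intervals do not show equal levels.

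**Figure D1:**
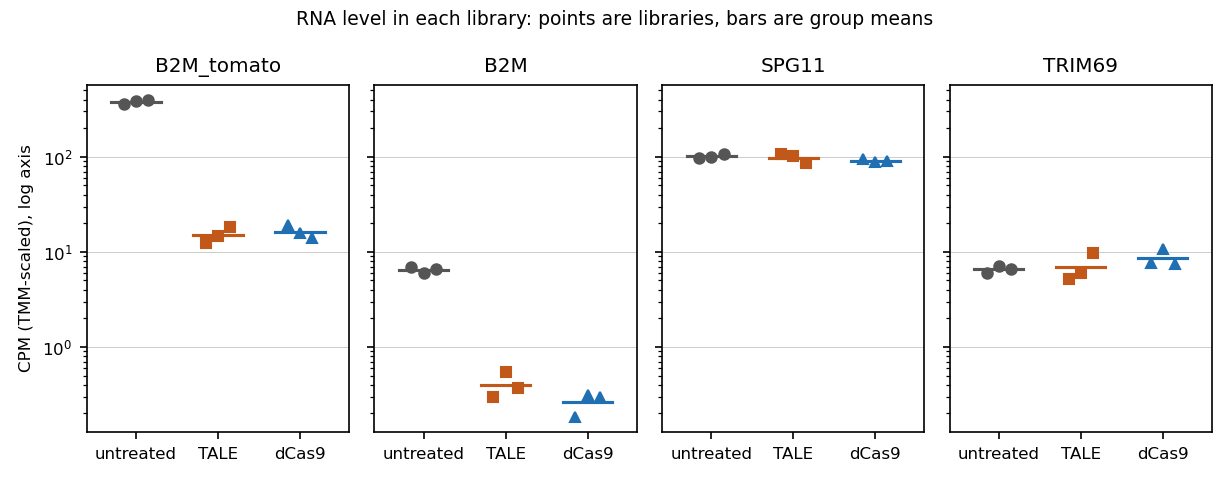
Level in CPM on a log axis for B2M_tomato, B2M and the nearest tested neighbour on each side, SPG11 and TRIM69, by group; points are libraries and bars are means of 3 libraries. Both B2M rows drop from 379 to 15.1 and 16.3 CPM, and from 6.45 to 0.401 and 0.264 CPM, while SPG11 stays between 85.9 and 107 CPM and TRIM69 between 5.19 and 10.6 CPM.

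The share of the B2M row in the summed counts of both rows asks whether they fell in proportion. It was 1.89%, 1.52% and 1.63% in the untreated libraries, 2.29%, 3.57% and 2.0% in TALE and 0.966%, 1.91% and 2.10% in dCas9. The TALE shares were all above the untreated ones, and the dCas9 shares lay on either side of them. The mean was 1.68% ± 0.188 (SD, n = 3) in untreated cells, 2.62% ± 0.836 in TALE cells (exact permutation p = 0.1) and 1.66% ± 0.607 in dCas9 cells (exact permutation p = 1.0). Pooled counts gave 1.70% in untreated cells (exact Clopper-Pearson 95% interval 1.46% to 1.96%), 2.66% in TALE cells (1.46% to 4.42%) and 1.58% in dCas9 cells (0.684% to 3.09%). These intervals cover counting error only. With 14 B2M counts in all TALE libraries and 8 in all dCas9 libraries, a change in the share within these intervals was not detectable. How the authors assigned reads that match both rows is not given in the sources used here, so the share is one of counts and not of transcripts. With both rows summed before the fit, the log2 fold changes were −4.63 for TALE and −4.54 for dCas9.

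Next to B2M, the gene with the closest start is PATL2, which lies 194 bases away and shares the stretch printed above. The repressors were directed to the B2M promoter, and where in it their binding sites lie is not given in the sources used here. It was barely detected: 1, 3 and 7 counts in the untreated libraries, 0, 0 and 1 in TALE and 0, 1 and 1 in dCas9. Levels overlapped between untreated and silenced cells, since untreated replicate 1, at 0.0873 CPM, was below 3 silenced libraries. PATL2 did not pass the filter. In the fit without a filter its log2 fold change in silenced cells was −2.90 (edgeR adjusted p = 0.568 over 41469 genes). The median over those genes was −0.24 in that fit, against 0.00 over the genes that passed the filter. Lower values in silenced cells were thus common in that fit and not particular to PATL2. Pooled over libraries, 3 counts in silenced and 11 in untreated cells put it at 11.8% of untreated, with a counting interval of 2.11% to 44.5%. Without untreated replicate 3, which holds 7 of those 11 counts and has the largest share of counts in low genes, the log2 value was −2.01 (edgeR adjusted p = 1.0).

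SPG11, the nearest tested gene on the PATL2 side, starts 47.9 kb from the B2M start and codes for spatacsin, a protein of lysosome recycling. Its levels were 97.6, 98.7 and 106 CPM in untreated cells, 107, 102 and 85.9 in TALE and 94.2, 88.3 and 90.0 in dCas9. The 3 dCas9 libraries were all below the untreated ones, and the TALE libraries spread over a wider range. SPG11 was at 97.6% of untreated in TALE cells (95% interval 82.8% to 115%) and 90.3% in dCas9 cells (76.5% to 106%; edgeR adjusted p = 0.959). TRIM69, on the other side at 25 kb, codes for a ubiquitin ligase of the TRIM family. It had 6.02, 7.04 and 6.53 CPM in untreated cells, 5.19, 5.93 and 9.63 in TALE and 7.69, 10.6 and 7.53 in dCas9. Here the dCas9 libraries were all above the untreated ones, at 132% of untreated by the fit (93.8% to 185%; edgeR adjusted p = 0.904), and TALE cells were at 106% (75.3% to 150%).

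Farther out on the PATL2 side, EIF3J, a subunit of translation initiation factor eIF3, starts at 174.4 kb. It had 176, 149 and 147 CPM in untreated cells, 216, 167 and 172 in TALE and 170, 198 and 150 in dCas9. CTDSPL2, a phosphatase-like protein gene at 283.9 kb, had 141, 124 and 130 CPM in untreated cells, 122, 134 and 136 in TALE and 137, 139 and 134 in dCas9. CASC4, named GOLM2 in the annotation and coding for a Golgi membrane protein, starts at 422.8 kb and had 96.2, 87.9 and 82.0 CPM, then 82.0, 86.9 and 76.0, then 91.8, 87.1 and 85.1 in the same order of groups. In all 3 genes the groups overlapped. The log2 fold changes in silenced cells were 0.18 for EIF3J (95% interval −0.07 to 0.43), 0.02 for CTDSPL2 (−0.18 to 0.22) and −0.07 for CASC4 (−0.27 to 0.13).

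On the TRIM69 side, 2 more members were tested. SORD, which codes for sorbitol dehydrogenase and starts at 311.7 kb, had 43.9, 40.7 and 44 CPM in untreated cells, 40.5, 48.8 and 49.1 in TALE and 47.8, 38.5 and 44.9 in dCas9. SPATA5L1, an AAA ATPase gene at 690.8 kb, had 22.5, 20.6 and 17.2 CPM in untreated cells, 23.8, 20.4 and 22 in TALE and 21, 17.9 and 20.4 in dCas9. Both sets of groups overlapped, with silenced fold changes of 0.07 (−0.15 to 0.29) for SORD and 0.05 (−0.21 to 0.31) for SPATA5L1 on the log2 scale. Of SORD's exonic sequence, 35.4% of 50-base windows also occur elsewhere in the annotated transcripts, mainly in its pseudogene SORD2P, so that its counts can be shared.

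Across the 18 tested neighbours, 0 were called in the TALE, dCas9, silenced or TALE against dCas9 comparison. At an unadjusted p under 0.05 there was 1 of 18 for TALE, where 7.15% of all genes were, and 0 for dCas9, where 5.93% were. It was also 0 for silenced cells (6.35% of all genes) and 1 for TALE against dCas9 (6.38%). The median log2 fold change in silenced cells was 0.06, against 0.00 over all genes tested, with 5 neighbours lower and 13 higher and a range of −0.30 to 0.47. By distance, the median was 0.18 for the 3 neighbours within 250 kb, 0.07 for the 9 from 250 kb to 1 Mb, and 0.03 for the 6 beyond 1 Mb. This order depends on the bins: with limits of 500 kb and 1.5 Mb the medians were 0.045 for the nearest 6 neighbours and 0.071 for the others. Another 356 genes of chromosome 15 beyond 1 Mb had a median of 0.01. The lowest bound of any neighbour's 95% interval in silenced cells was −1.03, for CATSPER2, a sperm calcium channel gene with 10 to 32 counts per library. The upper bound of B2M in the same comparison was −3.65.

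**Figure D2:**
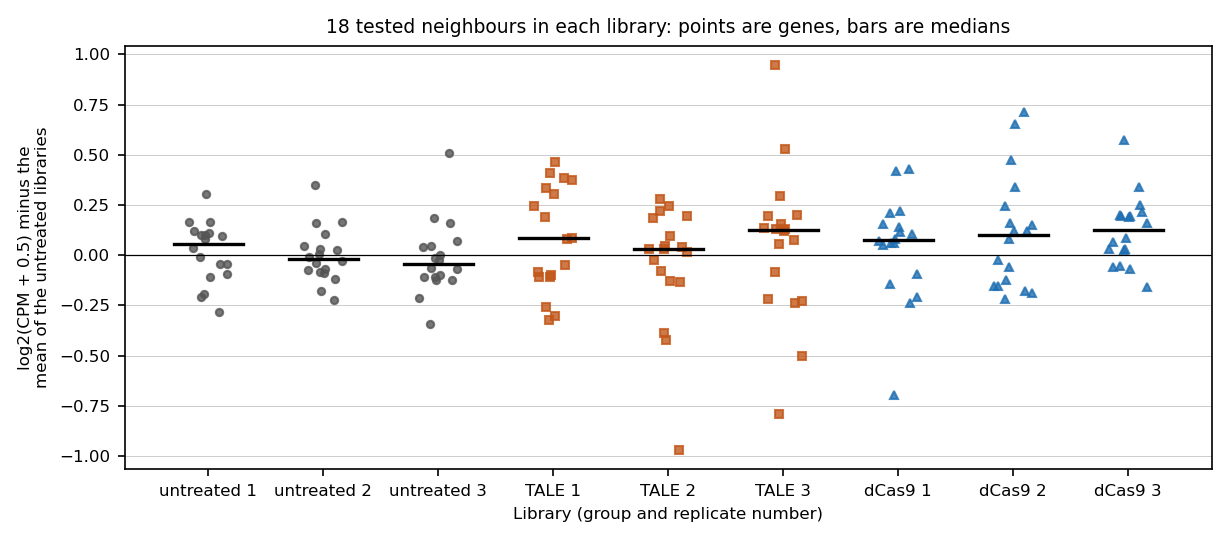
For each of the 9 RNA libraries, log2(CPM + 0.5) of the 18 tested neighbours minus the mean of the untreated libraries; points are genes and bars are medians. The medians run from −0.04 to 0.06 in untreated libraries, 0.03 to 0.12 in TALE and 0.07 to 0.12 in dCas9.

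MFAP1 and TP53BP1 were the neighbours with an unadjusted p under 0.05. MFAP1, a spliceosome component gene, had 61.3, 59.1 and 53.6 CPM in untreated cells, 76.9, 59.9 and 71.2 in TALE and 61.2, 64.7 and 59.1 in dCas9. TALE replicate 2 lay within the untreated range. Its log2 fold change for TALE was 0.26 ± 0.12 (SE; edgeR adjusted p = 0.69). TP53BP1, the gene of a DNA double-strand break repair protein, had 50.3, 45.5 and 44.8 CPM in untreated cells, 59.1, 54.6 and 44.1 in TALE and 42.3, 40.2 and 45.1 in dCas9. TALE exceeded dCas9 by 0.31 on the log2 scale (edgeR adjusted p = 0.745), with TALE replicate 3 inside the dCas9 range. Of the 50-base windows of TP53BP1, 33.4% also occur in other genes, mainly TUBGCP4, which overlaps it on the opposite strand, so its counts can be shared.

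Groups whose libraries did not overlap in CPM were counted as well. For TALE against untreated there were 2 of 18 neighbours, CATSPER2 (lower) and PDIA3 (higher), where 12.5% of all genes did not overlap. For dCas9 there were 4, PDIA3, TRIM69 and WDR76 (higher) and SPG11 (lower), against 11.6% of all genes. For all 6 silenced against the 3 untreated libraries there was 1, PDIA3, against 3.54% of all genes. PDIA3, which codes for a disulfide isomerase of the MHC class I peptide-loading complex, had 256, 223 and 234 CPM in untreated cells, 293, 281 and 258 in TALE and 261, 258 and 270 in dCas9. The log2 difference in silenced cells was 0.18 ± 0.10 (SE; edgeR adjusted p = 0.834), and 36.8% of its 50-base windows occur in other genes, among them its pseudogene PDIA3P1.

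Per length of exon, the levels of the neighbours in untreated cells covered a wide range. Among genes of the nucleus, RNA and protein synthesis, EIF3J was highest at 50.3 CPM per kb, followed by MFAP1 (25.6) and WDR76 (21.2), and ELL3, an elongation factor gene, was lowest at 0.0559. PDIA3 was at 20.2 CPM per kb. Of the cytoskeleton and membrane genes CASC4 was highest at 12.5 and STRC, the gene of the inner-ear protein stereocilin, lowest at 0.00498. Of the metabolic genes SORD was highest at 3.45 and DUOXA2, a maturation factor of the dual oxidase DUOX2, lowest at 0.0114. Of the channels and transporters CATSPER2 was highest at 0.244 and SLC28A2, a nucleoside transporter gene, lowest at 0.0233. The B2M row was at 2.07 CPM per kb in untreated cells, between SPG11 (6.26) and TRIM69 (0.705). This value leaves out the B2M_tomato row, which had 379 CPM in untreated cells against 6.45 for the B2M row. How reads that match both rows were assigned is not given, so 2.07 does not rank the expression of the B2M gene among its neighbours.

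The remaining tested neighbours were MAP1A, PPIP5K1, CKMT1B, CKMT1A, SERF2, HYPK and WDR76, all between 884.5 and 1193.9 kb from the B2M start. Their log2 fold changes in silenced cells ran from −0.10 for PPIP5K1, an inositol pyrophosphate kinase gene, to 0.47 for CKMT1A, with an edgeR adjusted p of at least 0.891. CKMT1A and CKMT1B code for the same mitochondrial creatine kinase and share 88.4% of their 50-base windows with each other. Their counts may have been split between these copies. HYPK overlaps SERF2 on the same strand and all its windows also occur in SERF2, so that reads can match both rows. PPIP5K1 shares 54.2% of its windows with other genes, and SERF2 45.4%. STRC, ELL3 and SERINC4 share 85.3%, 85.9% and 87.4% of their windows with other genes.

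The 17 members below the filter had at most 14 counts in any library. They were STRC, ELL3, SERINC4, FRMD5, PATL2, C15orf43 (TERB2 in the annotation), DUOX2, DUOXA2, DUOXA1, DUOX1, SHF, SLC28A2, GATM, C15orf48, SLC30A4, SQRDL (SQOR) and SEMA6D. SHF, an adaptor protein gene, had the most, 3 to 14 counts per library. Besides PATL2, the dual oxidase genes DUOX1 and DUOX2, which make hydrogen peroxide in epithelia, were singled out after their values were seen. DUOX2 had 1, 3 and 6 counts in the untreated libraries and 0 in all 6 silenced ones (edgeR adjusted p = 0.229 without a filter). Its log2 value was −5.01 in that fit, where the median over all genes was −0.24. Without untreated replicate 3, which held 6 of its 10 counts, the value was −4.27 (edgeR adjusted p = 0.9999). The share of all low genes with such a split was not counted. DUOX1 had 1, 0 and 10 counts in untreated cells, with 10 of the 11 in replicate 3, and 4 counts in the 6 silenced libraries. Without that replicate the log2 value of DUOX1 turned from −2.62 to 0.17. A change in DUOX1 was not detectable at this depth, and the part of the higher share of low-gene counts in untreated replicate 3, 0.639%, in these values was not tested.

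At the B2M start, MeDIP counts were found in every silenced library and in 0 untreated libraries, and the difference passed the test over all regions in dCas9 cells. The deposited region there, chr15:45003405-45003721, is 317 bases long with 20 CpG; it covers 310 bases before the B2M start, including the whole stretch printed above, and 117 bases on the PATL2 side of the PATL2 start. It had 0 counts in all 3 untreated libraries, 7, 10 and 9 in the TALE libraries and 14, 13 and 16 in the dCas9 libraries. No silenced library overlapped the untreated ones. Levels were 3.21 ± 0.727 CPM (SD, n = 3) in TALE and 5.27 ± 1.78 in dCas9. The limit that 0 counts allow was taken as 3 counts over the pooled untreated libraries, or 0.34 CPM. Mean signal was 9.44-fold that limit in TALE and 15.5-fold in dCas9 cells. These ratios leave out the counting error of the silenced libraries and are no lower bounds.

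This region passed the test over all 105652 regions in dCas9 cells (edgeR adjusted p = 0.0438), where it was the single region called (0.000947%) and 4.69% of regions had an unadjusted p under 0.05. With 0 counts in the untreated libraries, it passed the count filter only through the silenced libraries, so the call is no support independent of those counts. In TALE cells the edgeR adjusted p was 0.522 (unadjusted 1.48e-05), where the percentage of regions called was 0 and 4.74% had an unadjusted p under 0.05. For silenced cells it was 0.0815, with 0 called and 4.88% at an unadjusted p under 0.05. The exact permutation p over 6 silenced and 3 untreated libraries was 0.0238, the smallest possible. TALE did not differ from dCas9 beyond the spread of the libraries (log2 difference −0.70, 95% interval −1.94 to 0.55; exact permutation p = 0.2). The dCas9 call rests on few counts: it was lost with DESeq2 (adjusted p = 0.103) and with a replicate block in edgeR (adjusted p = 0.085), and on leaving out any of untreated replicates 1, 2 and 3, TALE replicates 2 and 3, and dCas9 replicates 1 and 3 in turn (edgeR adjusted p 0.0508 to 0.463). Without untreated replicate 1 or 3, the ratios to the limit that 0 untreated counts allow were 5.96-fold and 6.00-fold for TALE. They were 9.78-fold and 9.86-fold for dCas9, fewer libraries being pooled. The authors' peak lists had a peak over this region in 0 untreated, 1 TALE (replicate 2) and 1 dCas9 (replicate 3) sample.

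Around this region, the other 7 MeDIP regions within 30 kb of the B2M start had log2 fold changes of −0.47 to 0.94 in silenced cells, and the lowest unadjusted p in any comparison was 0.0734 (edgeR adjusted p = 1.0). Of the 36 positioned members, 22 had a listed region within 2 kb of their start, 24 regions in all, of which 18 were tested. Apart from the shared B2M and PATL2 region, the other 17 gave 0 calls and 0 with an unadjusted p under 0.05 in any of the 4 comparisons, where in TALE against dCas9 4.47% of all regions had one. In silenced cells 9 of the 17 were lower, with log2 fold changes of −0.49 to 0.35. The 0 at an unadjusted p under 0.05 depends on the 2 kb limit. Among the 53 regions within 5 kb, it was met by regions near EIF3J (−0.53) and WDR76 (0.32) for TALE. A region near MFAP1 met it for TALE against dCas9 (0.93). None of these was called, and 4.74% of all regions met it for TALE. The region within 2 kb of the SPG11 start had 72 counts in untreated, 68 in TALE and 99 in dCas9 libraries, a silenced change of 0.26 (95% interval −0.30 to 0.83). That of TRIM69 had 55, 39 and 39 counts, a change of −0.47 (−1.18 to 0.24). That of EIF3J had 80, 83 and 73 counts, a change of 0.06 (−0.50 to 0.61). These flanking regions lie within 2 kb of the gene starts and do not cover them, whereas the B2M region covers its start. The flanking regions gave MeDIP signal in untreated cells, and the signal at the flanking starts themselves is not shown by these values.

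In the pathway that B2M serves, 14 genes code for chains that bind beta-2 microglobulin, 14 for peptide supply and loading, and 6 for transcription factors of MHC class I genes. Of these 5, 13 and 5 were tested, and 0 passed in any of the 4 comparisons (percentages of all genes called as above). At an unadjusted p under 0.05 in silenced cells there were 1 of the 5 partner chains, 3 of the 13 loading genes and 0 of the 5 factors, against 6.35% of all genes. HLA-C, a classical heavy chain gene, had 6.02, 6.92 and 6.41 CPM in untreated cells, 2.74, 4.16 and 5.00 in TALE and 3.24, 2.28 and 2.78 in dCas9, so that all silenced libraries lay below the untreated ones, and 3.54% of all genes had groups that did not overlap in that comparison. On the log2 scale the change was −0.95 ± 0.21 (SE; edgeR adjusted p = 0.119). PSMB8 and PSMB9, subunits of the immunoproteasome, had −0.91 ± 0.24 (edgeR adjusted p = 0.269) and −0.78 ± 0.24 (edgeR adjusted p = 0.453), and TAP1, a subunit of the peptide transporter, −0.41 ± 0.18 (edgeR adjusted p = 0.743). The medians in silenced cells were −0.25 for the partner chains, −0.06 for the loading genes and 0.07 for the factors, against 0.00 over all genes.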

How the data were processed

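Per the submitters' processing notes, RNA reads were processed with hg19 and STAR 2.3.0, and MeDIP reads with hg19, BWA 0.7.5, Picard, MACS2 and bedtools. The counter, annotation, use of strand and rule for the MeDIP regions are not given in the sources used here. The deposited tables hold raw counts per gene (55766 rows) and per region (198884), 9 libraries each. The deposited peak lists give fold enrichment and −log10 q per peak, and only the presence of a peak was used. RNA was amplified with a kit for degraded RNA, per the labels' protocols.

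The quasi-likelihood test of edgeR 4.0.16 (R 4.3.3) was used on the counts, with TMM factors, filterByExpr with a minimum count of 10, and 1 model of group means over 9 libraries. P-values were Benjamini-Hochberg adjusted over all features, with calls at adjusted p under 0.05. CPM are TMM-scaled. Single values were tested by exact two-sided permutation. The fits were also run on simulated counts, with changes set only in the TALE group and only in features well above the filter. That run does not cover counts as low as those of the B2M row or the B2M region. Positions are from GENCODE on GRCh37. Values per library were given for B2M, B2M_tomato, up to 4 nearest tested members per side, and members called or with an unadjusted p under 0.05; other members by range, with the highest and lowest per kb of each role. Members and lists were chosen with earlier results of these data known. DESeq2 1.42.0, other factors, no filter, a replicate block, only the groups compared, and leaving out each library were alternatives.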

Additional observations from a re-analysis of the deposited data

How the results depend on the processing

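The same 2 members, B2M and B2M_tomato, were called in the TALE, dCas9 and silenced comparisons under every RNA alternative run, and 0 members were called between TALE and dCas9. Counts over all genes moved: with DESeq2 to 9 (0 higher) for TALE, 29 (12 higher) for dCas9 and 36 (7 higher) for silenced cells, and without a filter to 74, 89, 79 and, for TALE against dCas9, 77. With only the groups compared, 8 were called for dCas9. Leaving out each library in turn gave 2 to 16 for TALE, 2 to 10 for dCas9, 0 to 21 for TALE against dCas9 (highest without dCas9 replicate 1) and 2 to 33 for silenced cells; the other 3 were highest without TALE replicate 3. Correlations of same-numbered libraries were −0.256 to 0.101 (RNA) and −0.00502 to 0.0038 (MeDIP). These values show no pairing by number and cannot exclude one, since what the numbers stand for is not given. With a replicate block, 2 genes were called for dCas9 and 0 MeDIP regions, and the B2M region had a log2 value of 6.91 (adjusted p = 0.085). With DESeq2 the same region also lost its dCas9 call (6.36, adjusted p = 0.103), and 0 regions were called for dCas9 and 0 for TALE against dCas9. Without a filter it passed in silenced cells (6.55, adjusted p = 0.0275), the 1 region called, and 0 were called for TALE against dCas9. Leaving out libraries gave 6.71 to 7.11 for dCas9 and 6.47 to 6.63 for silenced cells, and 0 to 2, 0 to 3, 0 to 1 and 0 to 2 regions called for TALE, dCas9, TALE against dCas9 and silenced cells. These log2 values are against 0 counts and are no bounds. The sign of B2M between TALE and dCas9 turned from 0.62 to −0.10 with both rows summed, and that of DUOX1 in silenced cells from −2.62 to 0.17 without untreated replicate 3, chosen after seeing the data. Signs of smaller differences turned for B2M_tomato between TALE and dCas9 (−0.26 to 0.02 over libraries left out), and in silenced cells for CTDSPL2 (−0.019 to 0.076), SPATA5L1 (−0.049 to 0.146) and TP53BP1 (−0.032 to 0.069, and −0.002 with upper-quartile factors). With bins of 500 kb and 1.5 Mb the nearest bin held 6 neighbours with a median of 0.045, the middle bin had 0.071, and 0 lay beyond 1.5 Mb. The cause of these shifts was not tested. Depth left 17 members untested and B2M with 2 to 7 counts in silenced libraries.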

Other observations

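Genes of the same stretch that are not among the 37 members gave values of the same size. EIF3J-AS1, an antisense transcript next to EIF3J, had a log2 fold change of 0.00 in silenced cells, and CATSPER2P1, PIN4P1 and BLOC1S6 had a median of −0.10, with 3 of 3 lower and 0 called by edgeR.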
